A study of Sus scrofa with 6 samples.

Results

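The microRNAs (miRNAs) described here were grouped around MITF, the transcription factor that governs pigment cell identity and melanin synthesis. Not all of them have a known link to it. They were found by name, as porcine rows with the stem miR-204, miR-211, miR-218, miR-218b, miR-340, miR-137, miR-138 or miR-330. There were 5 such rows among the 898 miRNAs listed: ssc-miR-204, ssc-miR-340, ssc-miR-218, ssc-miR-218b and ssc-miR-138. The rows of ssc-miR-218 and ssc-miR-218b hold identical values and were counted once, which leaves 4 distinct miRNAs. The table lists no row with the stem miR-211, miR-137 or miR-330, and these are not analysed here. The name of the group therefore covers more than was measured, since miR-211 and miR-137, the members best known from pigment cells, are not among the values.

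Small RNA was sequenced from skin of the Xiang pig, a Chinese breed of Sus scrofa kept for its small size. There were 3 libraries from white skin (S02, S06 and S07) and 3 from black skin (S03, S04 and S05). All 6 came from the same kind of material, depilated skin disinfected with alcohol and held in a preservative in the cold, with no other treatment. The labels give no age, sex, body site or animal, so every p-value rests on the variation among these 6 libraries alone, which may be technical. Skin is a mixture of keratinocytes, fibroblasts, vessels, nerves, muscle and few pigment cells, and in such bulk tissue fewer cells of a type and less RNA per cell cannot be told apart.

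A miRNA is a short RNA that pairs through its 5′ seed with target messenger RNAs and lowers their translation or stability. MITF switches on TYR, TYRP1 and DCT, the enzymes of melanin synthesis. Its own messenger RNA is a known target of miR-137, miR-218 and miR-340 in pigment cells and melanoma lines. miR-204 and miR-211 are close relatives with a shared seed. They are made from introns of TRPM3 and TRPM1, and TRPM1 is a classic MITF target gene in melanocytes. miR-330 is known as a regulator of TYR in melanoma cells, and miR-138 is best known from neurons, where it restrains the growth of dendritic spines. These are statements of background and were not measured here. Mature sequences and seeds of the porcine miRNAs were not used here.

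In the pig genome build Sscrofa11.1, the precursor MIR204 lies on chromosome 1 at 224065494 to 224065602, within the span of TRPM3 (223833263 to 224682424). The row pair of miR-218 has precursors at a pair of loci. MIR218-1 lies on chromosome 8 at 15047602 to 15047685 within the span of SLIT2, and MIR218B on chromosome 16 at 55115926 to 55116009 within that of SLIT3. SLIT2 and SLIT3 encode secreted guidance proteins. MIR138 lies on chromosome 13 at 27450130 to 27450214, in no protein-coding gene. The closest such genes are LOC110256583, 9.6 kb before it, and TOPAZ1, 124.5 kb after it. The RefSeq gene table used for these positions gives spans of genes, so exon and intron were not assigned, and ssc-miR-340 was matched to no record of it.

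Libraries held between 6454685 and 10165949 reads of listed miRNAs, recovered from values in RPM (reads per 1e+06 such reads of a library). Reads of other RNA are not in these totals, and each of the 47 rows identical to another row adds to them. The first principal component of all 454 tested miRNAs (50.9% of the variance) separated white from black skin. On the second (20.3%) the white library S02 stood apart at 9.24, against -6.10 to 3.82 for the other 5. Results that lean on S02 are given with and without it.

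The 4 miRNAs differed widely in level. Over all libraries ssc-miR-218 averaged 812 RPM, ssc-miR-340 averaged 366 RPM, ssc-miR-204 averaged 90.4 RPM and ssc-miR-138 averaged 1.09 RPM. Among the 280 miRNAs with a porcine name they ranked 55 (level with its identical row), 78, 120 and 247. Each library showed the same order of the 4. Both neighbours at the top came closest in the white library S02, where ssc-miR-218 was 1.29 times ssc-miR-340, against 3.68 times in S07. RPM of mature miRNAs need no correction for length, but library preparation captures some sequences better than others, so the order is one of reads. Together the 4 held 0.0926% to 0.171% of the listed miRNA reads of a library. The range in white skin (0.0926% to 0.141%) overlapped that in black skin (0.110% to 0.171%).

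**Figure D1:**
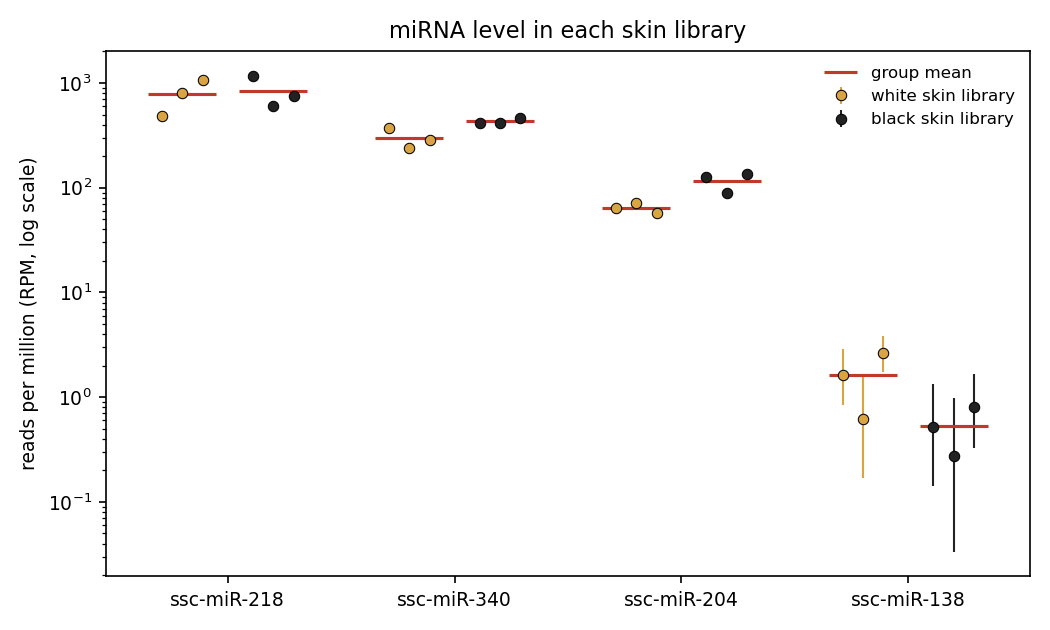
Level of each miRNA in RPM on a log axis, for the 3 white and 3 black libraries, with vertical bars for the 95% Poisson interval of the reads (hidden by the points where narrow) and red lines for group means. The black points lie above the white ones for ssc-miR-340 and ssc-miR-204, and the groups overlap for ssc-miR-218 and ssc-miR-138.

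Of the 4 miRNAs 3 were abundant enough to be tested, and 0 of these 3 passed the test between black and white skin (limma, adjusted p under 0.05), where 7.05% of all 454 tested miRNAs did. At an unadjusted p under 0.05 there were 2 of 3, against 25.6% of all tested. edgeR and limma-voom on the recovered reads also called 0 of 3 (6.61% and 6.83% of all), and DESeq2 called 1 of 3 (11.7% of all). The groups did not overlap for 2 of 3, with black skin higher, against 13.4% of all tested in that direction and 27.3% in either. With 3 members these shares are given side by side without a test.

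ssc-miR-204, the miRNA from within TRPM3, was the one closest to the threshold. White skin gave 64.5 RPM in S02, 71.1 in S06 and 57.7 in S07, and black skin gave 125 RPM in S03, 88.5 in S04 and 135 in S05. All 3 black libraries were above all 3 white ones, and S04 was the lowest of the black libraries. White libraries averaged 64.5 ± 6.68 RPM and black ones 116 ± 24.6 RPM (SD, n = 3), which are 1.80-fold apart. Black minus white came to 0.82 on the log2(RPM + 1) scale (standard error 0.24, 95% interval 0.27 to 1.37, limma adjusted p = 0.0804, unadjusted p = 0.00799). An exact permutation test over libraries (two-sided) gave p = 0.1, and with 3 libraries a group no smaller p is possible.

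Counting error was small beside this difference. The values rest on 459 to 1168 reads per library. The nearest libraries of the groups, S06 and S04, had 95% Poisson intervals of 64.8 to 77.9 RPM and 81.8 to 95.6 RPM, which cover counting error only. Between libraries of 1 group the level of ssc-miR-204 varied about as much as is usual for its abundance. Its pooled SD on the log2 scale was 0.25, and the median over 88 named miRNAs within 4-fold of its level was 0.27. DESeq2 called the difference (0.82, adjusted p = 0.0469), and over all other settings with all libraries adjusted p reached up to 0.129. Without 1 library it ranged from 0.71 without S05 to 1.01 without S04, with adjusted p from 0.0709 to 0.265.

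ssc-miR-340, named in melanoma work as a miRNA that binds MITF messenger RNA, was also higher in each black library than in each white one. White skin gave 375 RPM in S02, 241 in S06 and 289 in S07. Black skin gave 411 RPM in S03, 416 in S04 and 465 in S05. The black libraries lay close together, 1.13-fold from lowest to highest, while the white ones spanned 1.56-fold and S02 came near the black range. The lowest black library was 1.09 times the highest white one. White libraries averaged 301 ± 68.1 RPM and black ones 430 ± 29.95 RPM (SD, n = 3), a ratio of 1.43. The difference was 0.53 on the log2(RPM + 1) scale (standard error 0.21, 95% interval 0.05 to 1.02) and did not pass the test (limma adjusted p = 0.154, unadjusted p = 0.0332, exact permutation p = 0.1).

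The size of this value moved most with the white libraries S02 and S06. Without S02 the difference of ssc-miR-340 was 0.70 (limma adjusted p = 0.0694), and without S06, the lowest white library, it was 0.38 (adjusted p = 0.359). Leaving out a black library changed its size less but raised adjusted p as well. It was 0.57 without S03 (adjusted p = 0.3195), 0.56 without S04 (0.242) and 0.48 without S05 (0.358). It did not pass in any of the 18 other settings and stayed above 0 in each of them.

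ssc-miR-218, the most abundant of the group and a known repressor of MITF, did not separate the skin colours. White skin gave 485 RPM in S02, 800 in S06 and 1062 in S07, and black skin gave 1177 RPM in S03, 597 in S04 and 753 in S05. The lowest of the 6 was white and the highest black, and the groups interleaved. White libraries averaged 782 ± 289 RPM and black ones 842 ± 300 RPM (SD, n = 3). The difference was 0.12 (standard error 0.33, limma adjusted p = 0.869, exact permutation p = 0.8), and its 95% interval of -0.62 to 0.86 leaves room for a change in either direction. Its sign turned without S02 (-0.19, adjusted p = 0.749) and without S03 (-0.15, adjusted p = 0.869).

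The libraries of 1 colour differed more in ssc-miR-218 than in most miRNAs of like abundance. From lowest to highest the white libraries spanned 2.19-fold and the black ones 1.97-fold. The pooled SD of 0.54 on the log2 scale was exceeded by 6 of 67 named miRNAs within 4-fold of its level, whose median was 0.28. One of the 67 is its identical row, ssc-miR-218b. At 3541 to 10793 reads per library, counting error was a small part of this spread. Because the pair of rows is identical, the share of the SLIT2 and SLIT3 loci in these reads cannot be read from the table.

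**Figure D2:**
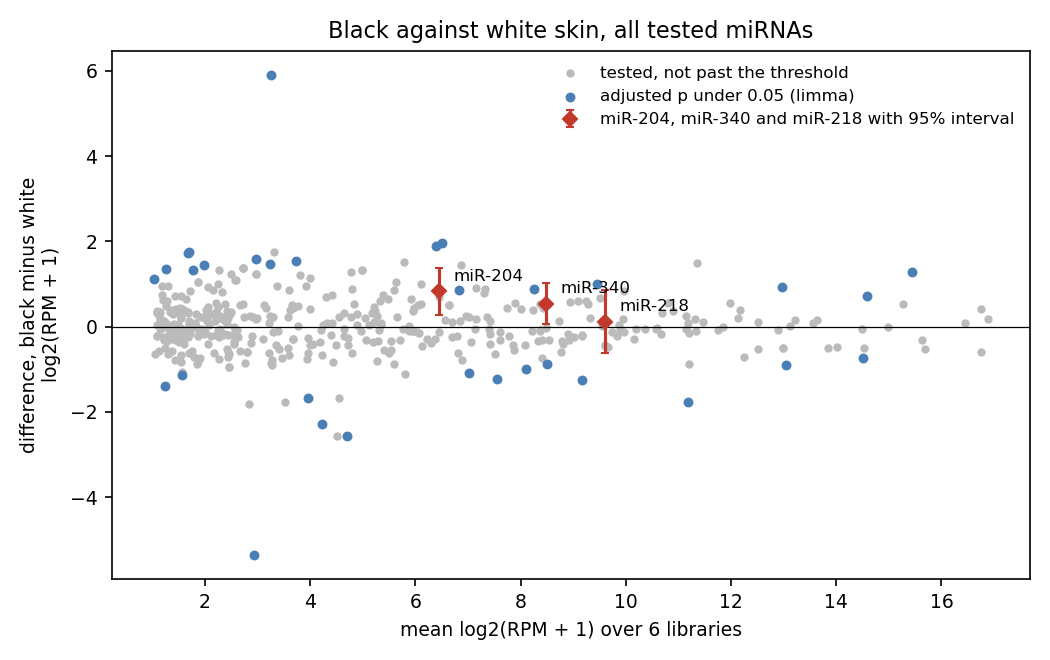
Difference between black and white skin on the log2(RPM + 1) scale (y) against mean level (x) for the 454 tested miRNAs, with those past the threshold in blue and the 3 tested MITF-linked miRNAs as red diamonds with their 95% interval. ssc-miR-204 lies at 0.82, ssc-miR-340 at 0.53 and ssc-miR-218 at 0.12.

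ssc-miR-138 was near the limit of detection. In white skin S02 held 12 reads of it (1.64 RPM), S06 held 4 (0.620 RPM) and S07 held 27 (2.66 RPM). In black skin S03 held 4 reads (0.516 RPM), S04 held 2 (0.273 RPM) and S05 held 7 (0.809 RPM). The white library S06 lay within the black range, so the groups overlapped, and the black library S04 was below the 0.409 RPM that a count of 0 would allow there (3 reads). White libraries averaged 1.64 ± 1.02 RPM and black ones 0.533 ± 0.269 RPM (SD, n = 3; exact permutation p = 0.2). Summed over libraries there were 43 white and 13 black reads, a ratio of 3.28 per read of the listed miRNAs. The 95% interval of this ratio, 1.73 to 6.65, covers counting error alone, without the spread between libraries. S07 held 27 of the 43 white reads. It did not pass the filter on low counts. With no filter its difference was -0.72 (limma adjusted p = 0.278).

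Ratios between members within a library do not depend on how the library was scaled. There was 5.81 times as much ssc-miR-340 as ssc-miR-204 in S02, 3.39 times in S06 and 4.997 times in S07 of white skin. In black skin the ratio was 3.27 in S03, 4.70 in S04 and 3.44 in S05. White and black libraries overlapped in this ratio. The ratio of ssc-miR-218 to ssc-miR-204 was 7.52 in S02, 11.3 in S06 and 18.4 in S07 of white skin, and 9.39 in S03, 6.74 in S04 and 5.57 in S05 of black skin, again with overlap.

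**Figure D3:**
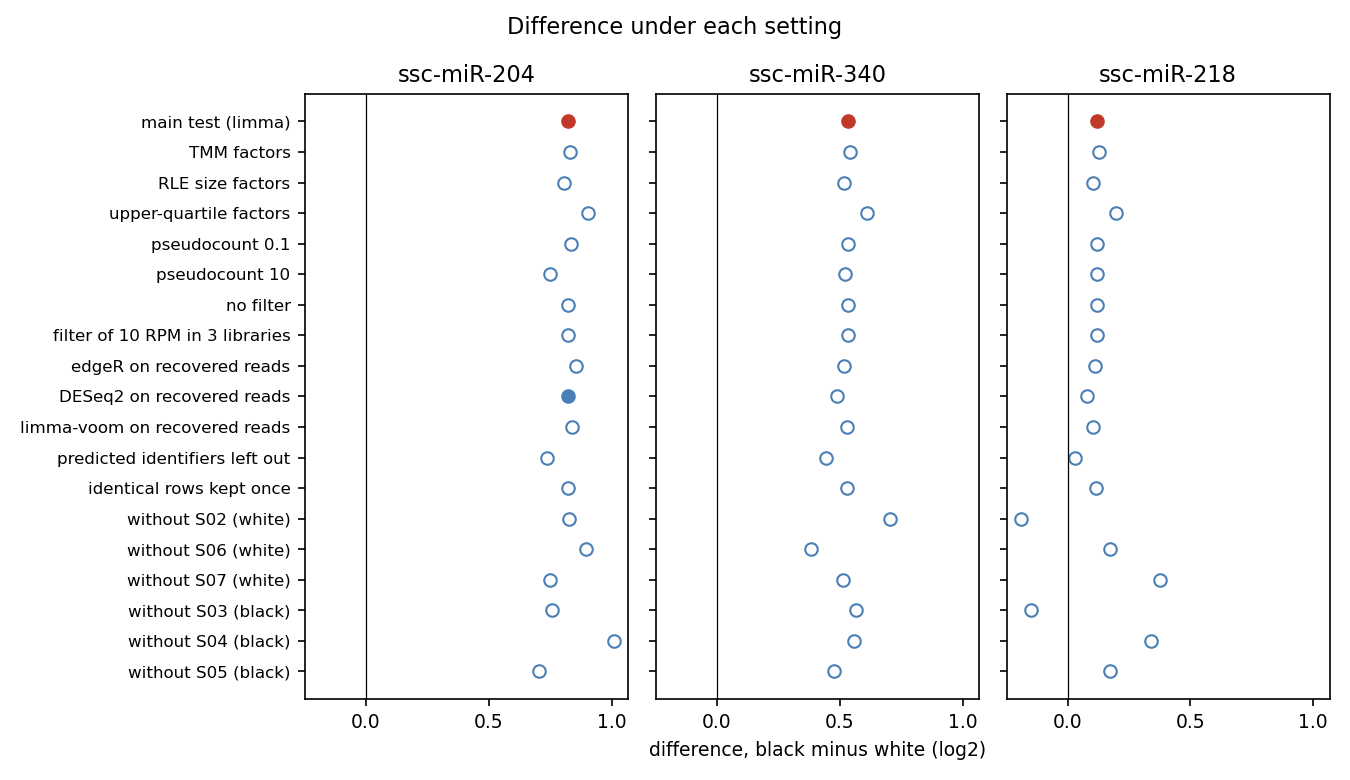
Difference between black and white skin (x, log2 scale) for the 3 tested miRNAs under the main test (red) and each other setting (blue), filled where the adjusted p was under 0.05 (the red point excepted) and open where it was not. ssc-miR-204 and ssc-miR-340 stayed above 0 throughout, 1 setting (DESeq2) called ssc-miR-204, and ssc-miR-218 fell below 0 without S02 and without S03.

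Other named miRNAs were ranked by how closely their level followed each member over the 6 libraries. The 3 with the highest Pearson r of 241 compared (240 for ssc-miR-218) are given as a description, with no test, since they were picked as the highest. Libraries share their scaling, and the pattern includes the difference between the groups. For ssc-miR-204 they were ssc-miR-7143-3p (r = 0.946), ssc-miR-181c (0.941) and ssc-miR-130a (0.925). ssc-miR-181c averaged 10.1 ± 2.22 RPM over white libraries and 20.3 ± 2.80 RPM over black ones (SD, n = 3), and like ssc-miR-204 it was lowest in S07 and highest in S05. ssc-miR-7143-3p is scarce, at 0.274 to 2.84 RPM.

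For ssc-miR-340 the closest were ssc-miR-101 (r = 0.981), ssc-miR-140-3p (0.978) and ssc-miR-26a (0.972). All 3 were lowest in S06 and had S02 as the highest of the white libraries, as ssc-miR-340 did. ssc-miR-101 spanned the widest range, from 809 RPM in S06 to 4813 RPM in S04. For ssc-miR-218 the closest were ssc-miR-7 (r = 0.884), ssc-miR-7137-5p (0.783) and ssc-miR-1 (0.734). ssc-miR-7, known from neurons and endocrine cells, was low in S02 (923 RPM) and S04 (857 RPM), the libraries in which ssc-miR-218 was lowest. ssc-miR-1 is made in striated muscle and measured 436 RPM in S02, its lowest value.

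**Figure D4:**
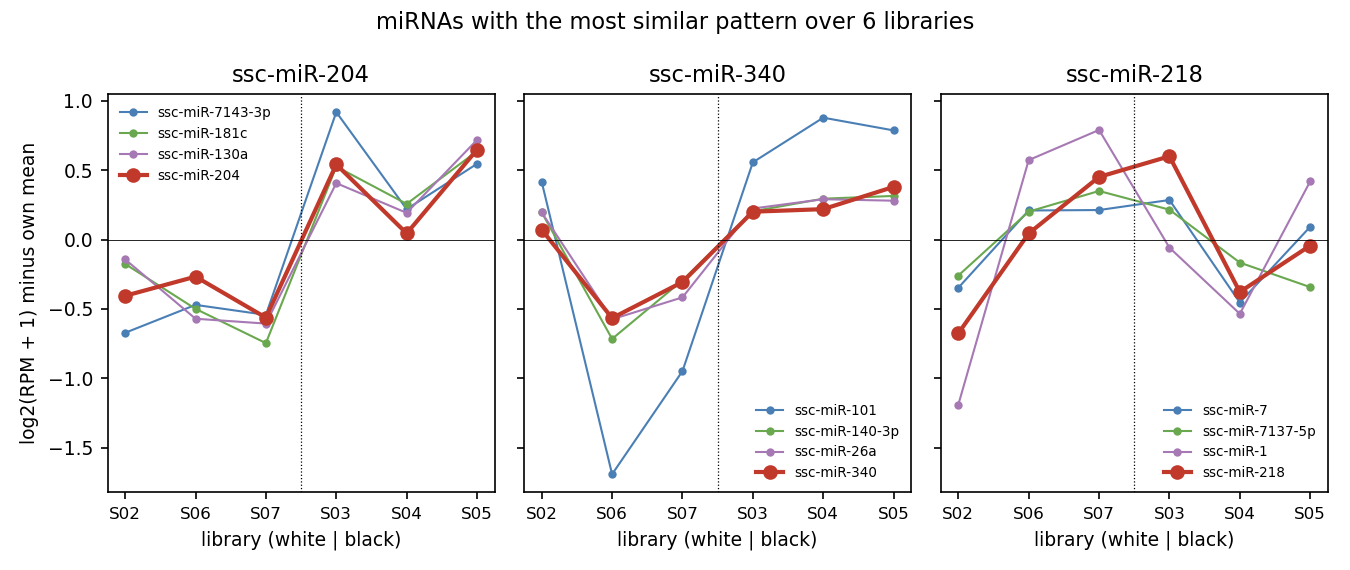
Level of each member (red) and of the 3 miRNAs most like it in each library, as log2(RPM + 1) minus its own mean over the 6 libraries; lines join the points of 1 miRNA and a dotted line divides white (left) from black (right). ssc-miR-204 and ssc-miR-340 lie higher in the black libraries, while ssc-miR-218 is lowest in S02 and S04.

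In the wider set of miRNAs linked to MITF or pigmentation 3 of 25 tested products (12%) passed the test, against 7.05% of all tested. Of these products 2 rose in black skin (ssc-miR-143-3p by 1.29 and ssc-miR-27a by 0.92), 1 fell (ssc-miR-221-3p by 1.24) and 22 did not pass, with a median difference of 0.19, against 0.00 over all 454 tested. ssc-miR-148a-3p, which is known to target MITF, is far more abundant than the members, averaging 99483 RPM over white libraries and 127269 RPM over black ones, with a difference of 0.42 (limma adjusted p = 0.327). ssc-miR-21, the most abundant of the set, gave 0.19 (adjusted p = 0.730). Of the 25 names in the set 11 are also in a list of another cell type below. Its summed level was separate between the groups, at 297656 to 332792 RPM over white libraries and 384910 to 446945 RPM over black ones, and this sum includes ssc-miR-143-3p, which is also in the vascular wall list.

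Markers of other skin cell types were summed in each library beside these results, and their calls are to be read against the 7.05% of all tested miRNAs that passed in either direction. In the lists with a single call this share is that of 1 miRNA. The vascular wall list was separate between the groups, with sums of 44365 to 58091 RPM over white libraries and 96227 to 119952 RPM over black ones. Of its 6 tested products 3 (50%) rose, with a median of 0.65, but arms of 1 hairpin are counted separately. Those that rose were both arms of miR-126 (0.71 and 0.89) and ssc-miR-143-3p (1.29). ssc-miR-143-5p (0.55), ssc-miR-145-3p (0.60) and ssc-miR-145-5p (0.36) were not called. The vascular list moved in the same direction as ssc-miR-204 and ssc-miR-340, and its part in their values was not tested. The other cell type lists overlapped between the groups. Epithelial and keratinocyte miRNAs summed to 23475 to 34650 RPM over white libraries and 18739 to 25754 RPM over black ones, with 0 of 5 called (median -0.31). They are led by ssc-miR-205, a keratinocyte miRNA, with means of 19830 and 14237 RPM, while miR-203 and miR-141 are among the names with no row. Neural miRNAs, the list closest to miR-138 and miR-218 in known biology, gave 1229 to 1806 RPM over white libraries and 1124 to 1832 RPM over black ones. Of 9 tested neural rows 1 rose, the scarce ssc-miR-135 by 1.35, and the median was -0.05. The rows of ssc-miR-9 and ssc-miR-9-1 hold identical values (difference -0.11), and both are counted here and in the sums. With this pair counted once the median would be higher. The groups did not overlap for 4 of the 9 rows, with black skin higher, against 13.4% of all tested in that direction. These rows include ssc-miR-129a-3p and ssc-miR-129a-5p, the arms of 1 hairpin. The neural list was not alone in this. Black skin was higher without overlap for 4 of 6 vascular wall products. In the set linked to MITF or pigmentation it was higher for 6 of 25 and lower for 2. Striated muscle miRNAs gave 677.7 to 2017 and 959 to 1604 RPM, with 0 of 5 called (median 0.28). They went both ways, from -2.56 for ssc-miR-206 (limma adjusted p = 0.0804, groups overlapping) to 0.53 for ssc-miR-133a-3p. Leukocyte miRNAs gave 3079 to 6024 and 3759 to 6009 RPM, and 1 of 7 (14.3%) rose (ssc-miR-142-3p by 1.96, median 0.13). Fibroblast and mesenchymal miRNAs gave 94426 to 123757 and 86222 to 108905 RPM, and 1 of 12 (8.33%) fell (ssc-miR-214 by 0.88, median -0.04). Among these 12, ssc-miR-199b-3p repeats the values of ssc-miR-199a-3p (difference -0.50), and the sums hold each of them. If only 1 of them were kept, the share that fell and the median would be higher. Erythroid miRNAs gave 1723 to 4914 and 994 to 4298 RPM, with 0 of 3 called (median -0.87).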

How the data were processed

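Per the labels, small RNA libraries were made from Xiang pig skin, 3 white and 3 black. The authors deposited 1 table in RPM, a unit read from the values, as each column sums to 1e+06. The submitters' processing notes name Bowtie and Sscrofa11.1 without a role. A counting tool is not named there, and the miRNA database release was not given in the sources used here. All values were whole multiples of 1 read (100% in every library, tolerance 0.001), so reads were recovered, and 1 read is worth 0.0984 to 0.155 RPM. All 6 columns were used. In a chi-square test of reads between libraries the most similar pair gave 249 per degree of freedom, so no library was treated as a duplicate.

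Black minus white was tested with limma 3.58.1 (R 4.3.3, trended variance) on log2(RPM + 1). P-values were adjusted by Benjamini-Hochberg over the whole tested table, with 0.05 as threshold. Permutation tests were two-sided. A change on this log2 scale understates that of scarce miRNAs. Rows were tested where the filterByExpr function of edgeR 4.0.16 (minimum count 10, minimum total 15) kept their reads, 454 of 898. The count tests (edgeR, DESeq2 1.42.0 and limma-voom) were alternatives. The fit was tested on simulated data. The members and the 8 lists were chosen with earlier results of these data known. Besides all members, the text names by rule the 3 miRNAs most like each member with at least 10 RPM. For the lists the rule covered the most abundant and the called members. Not all of these are named, and some other list members are. The rule also covered miRNAs with a member's seed and arm ratios; seeds were not used here, and no member has both arms listed.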

Additional observations from a re-analysis of the deposited data

How the results depend on the processing

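The call count among the tested members was 0 in all settings run but DESeq2, which called 1 (ssc-miR-204). Over all miRNAs DESeq2 called 53, against 32 (18 higher and 14 lower), and leaving out 1 library gave 7 to 41 calls. With predicted identifiers left out before scaling, the 242 tested miRNAs had a median difference of -0.14, with 16 higher and 19 lower. In that setting the difference shrank to 0.74 for ssc-miR-204 and 0.45 for ssc-miR-340, against 0.82 and 0.53 in the main test over 454. The unadjusted limma p of ssc-miR-340 rose from 0.0332 to 0.0650. These smaller differences were 0.87 and 0.58 above the median of the 242. ssc-miR-204 and ssc-miR-340 kept their sign in all 18 settings, and ssc-miR-218 ranged from -0.19 (without S02) to 0.38 (without S07) on leaving out 1 library, with -0.15 without S03. The cause was not tested. Keeping identical rows once was chosen after seeing the data and changed no member's call. No paired analysis was possible because the groups share no library codes. Depth limits ssc-miR-138 most, at 2 to 27 reads per library.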
